A study of Sus scrofa domesticus with 4 samples.

Results

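POMC, PCSK2 and OXT were followed in the pig anterior pituitary through 5 probes, which were all the array probes whose sequence accession belongs to 1 of these 3 genes in the pig RefSeq annotation. They were 5 of 43603 probes that were not controls, and 5 of the 25203 that passed a filter on dim signal. POMC had 3 probes and PCSK2 and OXT had 1 each. RNA came from 8 gilts, female pigs before their first litter, of a Large White x Polish Landrace cross. Of these, 4 were in early pregnancy after natural mating and carried conceptuses, and 4 were cyclic and not mated, per the labels. All were killed on days 15 to 16 counted from the onset of estrus. Each of 4 two-colour Agilent arrays carried 1 pregnant and 1 cyclic animal, so an array gave 1 independent pair, and every result rests on 4 pairs. Both groups shared breed, days and tissue, and the labels name no agent or genotype. The source is labelled as the anterior lobe, while the extraction text speaks of pituitaries without naming a lobe.

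POMC encodes pro-opiomelanocortin, a prohormone that is cut into smaller peptides. In corticotropes of the anterior lobe the convertase PCSK1 releases adrenocorticotropin, the pituitary hormone that drives the adrenal cortex, while in melanotropes of the intermediate lobe PCSK2 cuts further, to alpha-melanocyte-stimulating hormone and beta-endorphin. OXT encodes the precursor of oxytocin and its carrier neurophysin, made in hypothalamic neurons whose axons end in the posterior lobe. It is listed here as a posterior lobe marker, but the source of its messenger in this RNA was not tested. In bulk RNA of a gland, fewer cells of a type and less RNA per cell cannot be told apart.

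None of the 5 probes passed limma's threshold of an adjusted p of 0.05, at which 0% of all 25203 probes were called. At an unadjusted p under 0.05, 2 of the 5 were called, both of POMC and both lower in the pregnant animals, against 4.59% of all probes that were called lower and 8.03% called in either direction. Both also passed a fold of at least 1.2, as 7.87% of all probes did at that p. These 2 probes read 1 transcript in the same 4 pairs, so 2 of 5 is not a rate comparable with those shares. The members were also chosen with earlier results of these data known. Across all probes the median estimate was -0.01 and 52.4% lay below 0. All values below are log2 ratios of pregnant over cyclic unless another unit is named, ± the standard error that limma gave from the 4 arrays. That fit holds a dye effect for each probe, so its error can be much smaller than the spread of the single arrays. Pregnant RNA carried the green dye Cy3 on arrays 1 and 3 and the red dye Cy5 on arrays 2 and 4 by the label fields, which were followed. The text of the labelling protocol names 1 orientation for all arrays, and under it the ratios of arrays 2 and 4 would change sign. Well above background were 50.4% to 60.4% of the pregnant channel's spots and 52.5% to 66.5% of the cyclic channel's.

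The POMC probe with the highest mean intensity, A_72_P671668, did not separate the groups. Its median pixel intensity in the pregnant and the cyclic animal was 109504 and 491300 (array 1), 482470 and 183418 (array 2), 101514 and 503686 (array 3) and 494692 and 129349 (array 4). The animal labelled with Cy5 was the brighter of the pair on all 4 arrays, whether pregnant or cyclic. After normalization the ratios were -0.55, 0.64, -0.84 and 0.31, and normalized log2 levels were 17.91 ± 0.37 in pregnant and 18.02 ± 0.37 in cyclic animals (SD, n = 4 each). The groups overlapped in part: the 2 highest levels were cyclic, 18.36 and 18.27, and the lowest was pregnant, 17.42. The 4 Cy5 channels held the 4 highest levels. The fit gave -0.11 ± 0.12, with a 95% interval of -0.40 to 0.18 and an adjusted p of 0.780 in limma. Its dye effect, red over green, was 0.59 ± 0.12, larger than the estimate for pregnancy.

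The second POMC probe, A_72_P232287, was lower in the pregnant animal of every pair. Its median pixel intensity in the pregnant and the cyclic animal was 78617 and 396446 (array 1), 100790 and 124036 (array 2), 77931.5 and 282100 (array 3) and 179354 and 105532 (array 4). On array 4 the pregnant animal, there in Cy5, was the brighter before normalization and the dimmer after it. The normalized ratios were -0.76, -0.95, -0.44 and -0.78, and 7.75% of probes were below 0 on 4 of 4 arrays. Levels were 16.75 ± 0.44 in pregnant and 17.48 ± 0.32 in cyclic animals (SD, n = 4 each). The groups met at 1 point: the highest pregnant animal, on array 1 at 17.10, lay just above the lowest cyclic animal, on array 2 at 17.09. The limma estimate was -0.73 ± 0.11, 1.66-fold lower in pregnancy, with a 95% interval of -1.01 to -0.45. Its unadjusted p of 0.000862 ranked 35 among 25203 probes, and its adjusted p was 0.573. With background parameters estimated from all spots it stood at -0.36 ± 0.34, with an unadjusted p of 0.359 in limma. When only the signs of the 4 ratios were flipped (exact two-sided permutation test), p was 0.125, the smallest that 4 pairs can give. Here the dye effect was small, at -0.13 ± 0.11.

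The third POMC probe, A_72_P668559, was lower in the pregnant animal where that animal carried Cy5 and near 0 where it carried Cy3. Median pixel intensity in the pregnant and the cyclic animal was 98653 and 275480 (array 1), 57744 and 86469 (array 2), 53413.5 and 144109 (array 3) and 101023 and 77296.5 (array 4). The ratios were 0.08, -1.19, -0.07 and -1.10, and levels were 16.30 ± 0.89 in pregnant and 16.87 ± 0.38 in cyclic animals (SD, n = 4 each). Pregnant animals held the highest level, 17.44 on array 1, and the 3 lowest, down to 15.37 on array 2, so the groups overlapped. The limma estimate was -0.57 ± 0.10, 1.48-fold lower in pregnancy, with a 95% interval of -0.82 to -0.32. Its unadjusted p was 0.00178, ranking 73, and its adjusted p was 0.605. In limma the unadjusted p was 0.0537 without the dye term and 0.347, at -0.27 ± 0.25, with background parameters from all spots. The dye effect was as large as the estimate, at -0.58 ± 0.10, and opposite in sign to that of A_72_P671668. The exact sign-flip p of its 4 ratios was 0.375.

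**Figure D1:**
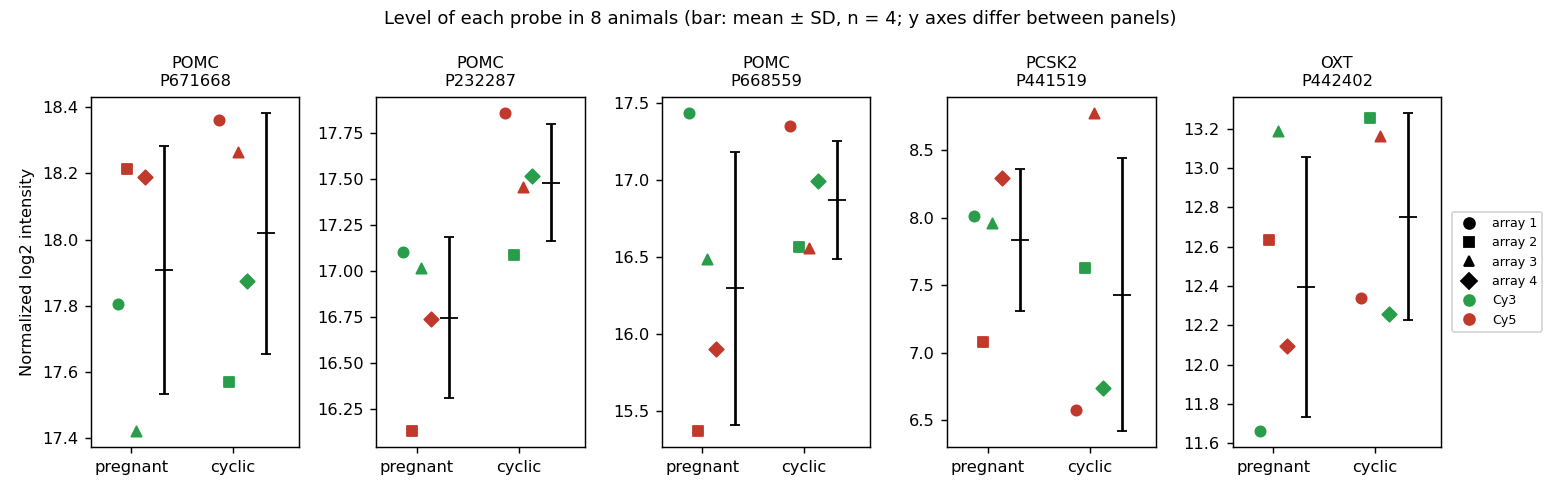
Normalized log2 intensity (y axis) of the 5 probes in the 4 pregnant and 4 cyclic animals, with marker shape for the array, colour for the dye and a bar for the mean ± SD. POMC A_72_P232287 has its pregnant animals between 16.13 and 17.10 and its cyclic animals between 17.09 and 17.86, while the groups of the other probes overlap widely.

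The 3 POMC probes read 1 transcript in the same animals and are not replicates of each other, and they disagreed. By dye orientation, the mean ratio on the arrays with pregnant RNA in Cy3 and in Cy5 was -0.70 and 0.48 for A_72_P671668. For A_72_P232287 it was -0.60 and -0.86, and for A_72_P668559 it was 0.01 and -1.14. The probe A_72_P232287 alone kept 1 sign in both orientations by more than 0.1. The mean of the 3 probes, a summary chosen after their values were seen, was -0.41, -0.50, -0.45 and -0.52 on the 4 arrays. Its estimate was -0.47 ± 0.10 (95% interval -0.71 to -0.23) with an unadjusted p of 0.00364 and an adjusted p of 0.604 in limma, and its dye effect was -0.04 ± 0.10. That small dye effect averages the probes' own dye effects of 0.59, -0.13 and -0.58, which largely cancel. The mean was fitted in the main setting only. With background parameters from all spots the 3 probes stood at 0.37, -0.36 and -0.27, so the estimate of the mean depends on the setting.

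**Figure D2:**
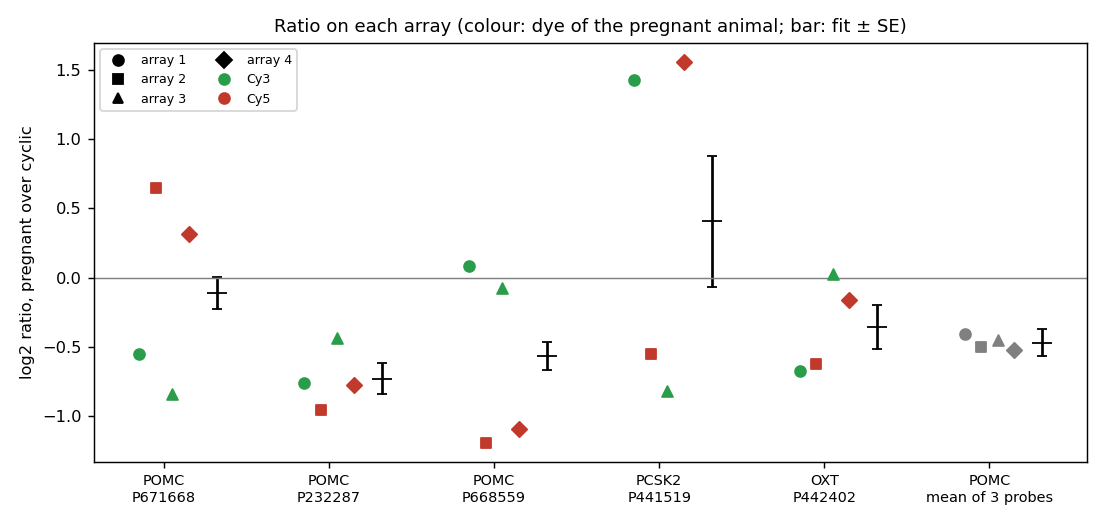
The log2 ratio of pregnant over cyclic (y axis) on each array for the 5 probes and for the mean of the 3 POMC probes, coloured by the dye of the pregnant animal, with bars for the limma estimate ± SE. For POMC A_72_P671668 the Cy3 arrays lie below 0 and the Cy5 arrays above, for A_72_P668559 the Cy5 arrays lie near -1.1, and for PCSK2 arrays 1 and 4 lie far above arrays 2 and 3.

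The channel intensities of the POMC probes differed in how far they moved between arrays. The red intensity of A_72_P671668 lay between 482470 and 503686 on the 4 arrays, a 1.04-fold range across 2 pregnant and 2 cyclic animals, while its green intensity spanned 1.81-fold. Among the 14 probes with at least 400000 in red on every array, the median red range was 1.17-fold and the median green range 1.90-fold, and no other of the 14 had a narrower red range. The red channel saturates at 778420 and 0 spots were marked as saturated. The other POMC probes spanned 3.93-fold (A_72_P232287) and 4.77-fold (A_72_P668559) in red, and 1.59-fold and 1.85-fold in green. The part of this narrow red range in the ratios of A_72_P671668 was not tested.

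**Figure D3:**
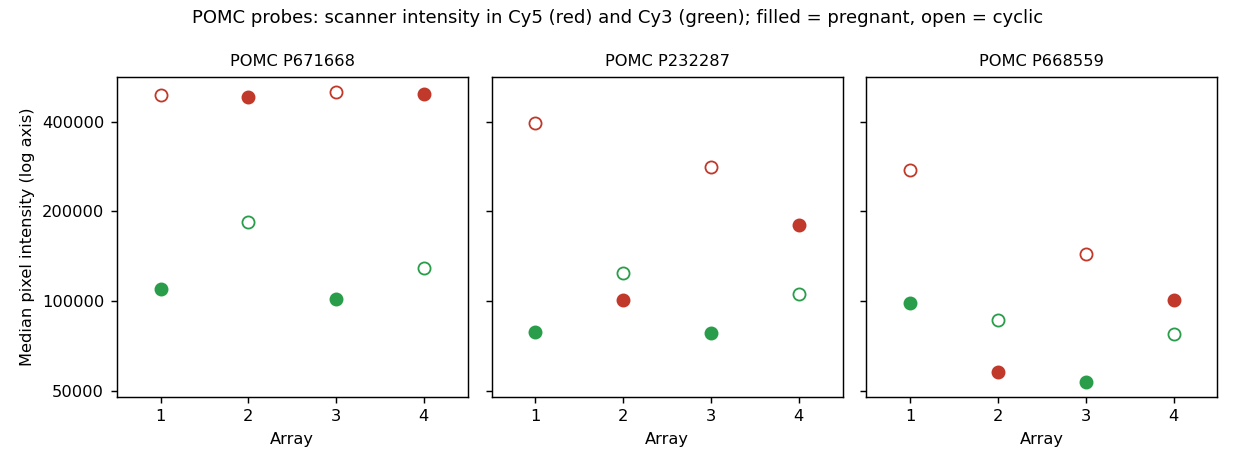
Median pixel intensity (y axis, log scale) of the 3 POMC probes on arrays 1 to 4, red points for Cy5 and green for Cy3, filled for pregnant and open for cyclic animals. The Cy5 points of A_72_P671668 lie at nearly the same height on every array, from 482470 to 503686, while the Cy5 points of the other POMC probes spread several fold.

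All 3 POMC probes lay in the bright end of the arrays, above a mean log2 intensity of 16, where 436 probes were tested. The median ratios of those probes were -0.24, 0.14, -0.27 and 0.15 on arrays 1 to 4, so bright probes as a class were lower in the pregnant channel where it was Cy3 and higher where it was Cy5. In the fit their median was -0.07, and 300 of 436 lay below 0. The estimate of A_72_P232287 was the lowest of the 436. At an unadjusted p under 0.05, 6.42% of these bright probes were called.

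PCSK2, the convertase of the intermediate lobe's POMC pathway, was dim and differed in direction between pairs. Median pixel intensity in the pregnant and the cyclic animal was 205 and 129 (array 1), 108 and 215 (array 2), 174 and 512 (array 3) and 326 and 82 (array 4). It was well above background in 7 of 8 channels, the exception being the cyclic animal of array 4, so the ratio of that array rests on a signal not well above background. Pregnant animals were higher on arrays 1 and 4 and lower on arrays 2 and 3, with ratios of 1.43, -0.55, -0.82 and 1.56. The levels from highest to lowest were cyclic array 3 at 8.78, pregnant array 4 at 8.30, pregnant array 1 at 8.01, pregnant array 3 at 7.96, cyclic array 2 at 7.63, pregnant array 2 at 7.08, cyclic array 4 at 6.74 and cyclic array 1 at 6.58. Cyclic animals thus held both ends of the order, and the means of 7.84 ± 0.53 and 7.43 ± 1.01 (SD, n = 4 each) differed by less than the spread. The limma estimate was 0.40 ± 0.48, with a 95% interval of -0.79 to 1.60 and an adjusted p of 0.804, and it turned to -0.16 without array 1 and to -0.12 without array 4. That interval spans changes in both directions.

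The other measured genes of POMC maturation lay within 0.3 of 0. Of 14 genes listed, 4 had a named probe and were tested, PCSK2 among them, with 3 above and 1 below 0, a median of 0.12 and 0 called at an unadjusted p under 0.05. PCSK1, the convertase that releases adrenocorticotropin, stood at 0.17 ± 0.11 (adjusted p = 0.642), from -0.21, 0.68, -0.18 and 0.39 on the 4 arrays. Of its other 2 probes, 1 stood at 0.09 and 1 near 0, at 0.0026. For the brightest PCSK1 probe, arrays with pregnant RNA in Cy5 were above 0 and those in Cy3 below. SCG5, the 7B2 chaperone that PCSK2 needs for its activation, stood at -0.21 ± 0.14 (adjusted p = 0.659), with -0.64, -0.23, -0.03 and 0.05 on the 4 arrays, and at 0.07 with background parameters from all spots. Without array 1 SCG5 stood at -0.06 and without array 3 at -0.37. CPE, the carboxypeptidase that trims the basic residues left by the convertases, stood at 0.08 ± 0.10 (limma unadjusted p = 0.485), with its 6 other probes on the same side of 0. PAM, which amidates the melanocortin, had no named probe and was not analysed here.

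Genes that drive or restrain POMC transcription showed no common direction either, and a list that mixes both need not show one. Of 21 listed, 8 had a named probe and 7 were tested, 4 above and 3 below 0, with a median of 0.03 and 0 called at an unadjusted p under 0.05. NR3C1, the glucocorticoid receptor through which cortisol restrains POMC, stood at 0.21 ± 0.13 (adjusted p = 0.643), with 0.10, 0.70, -0.48 and 0.54 on the 4 arrays and 1 of its 2 other probes on the same side, and at -0.06 with background parameters from all spots. In the main fit the dye effect of NR3C1 was 0.41 ± 0.13, larger than its estimate for pregnancy. CRHR1, the receptor of corticotropin-releasing hormone on corticotropes, stood at -0.13 ± 0.10 (adjusted p = 0.686), below 0 on 3 of 4 arrays and in its other probe. NR4A2, a nuclear receptor induced by that hormone, split as PCSK2 did, at 1.66, -1.23, -0.59 and 1.84, and its estimate was 0.42 ± 0.58 (adjusted p = 0.835). STAT3, which relays cytokine signals to POMC, stood at 0.08 ± 0.12 (adjusted p = 0.850), with 1 of its 3 other probes sharing the sign, and below 0 with median centring (-0.04) or without array 4 (-0.02). PAX7 and DRD2, listed here as melanotrope markers, had no named probe, and nor had TBX19. Corticotrope and melanotrope POMC can therefore not be told apart by these data.

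Receptors of the POMC peptides gave small ratios at dim signal. Of 12 genes of the melanocortin and opioid group, 6 had a named probe and 4 were tested, 3 above and 1 below 0, with a median of 0.05 and 0 called at an unadjusted p under 0.05. OPRM1, the mu opioid receptor that beta-endorphin binds, stood at 0.10 ± 0.10 (adjusted p = 0.768). AGRP, an antagonist of melanocortin receptors, stood at -0.09 ± 0.10 (adjusted p = 0.774) and was below 0 on 4 of 4 arrays, between -0.17 and -0.06, but at 0.02 with the scanner software's processed signals. MC3R and MC1R, a pair of melanocortin receptors, stood at 0.07 ± 0.11 (adjusted p = 0.855) and 0.03 ± 0.10 (adjusted p = 0.951). Background parameters from all spots put them below 0, at -0.04 and -0.03. These 4 genes were dim, with mean log2 intensities of 6.71 (OPRM1), 6.72 (AGRP), 7.05 (MC3R) and 7.56 (MC1R). OPRM1 and AGRP were well above background in 6 of 8 channels each. The offset of 50 in the background correction understates the folds of such dim probes. With the scanner software's processed signals OPRM1 and MC3R stood at 0.21 each and MC1R at 0.08. MC4R was well above background in 0 of 8 channels.

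OXT was readily detected in RNA labelled as anterior pituitary, in 8 of 8 channels. Its median pixel intensity in the pregnant and the cyclic animal was 2306.5 and 8288 (array 1), 7667.5 and 8952 (array 2), 5761 and 12148 (array 3) and 6269 and 3254 (array 4). The ratios were -0.67, -0.62, 0.02 and -0.16, so the pregnant animal was lower in 3 of 4 pairs and level with its partner on array 3. The levels from highest to lowest were cyclic array 2 at 13.26, pregnant array 3 at 13.19, cyclic array 3 at 13.16, pregnant array 2 at 12.63, cyclic array 1 at 12.34, cyclic array 4 at 12.26, pregnant array 4 at 12.09 and pregnant array 1 at 11.66. The 2 lowest animals were pregnant, but the groups overlapped over most of their range, with means of 12.39 ± 0.66 and 12.75 ± 0.53 (SD, n = 4 each). The limma estimate was -0.36 ± 0.16, with a 95% interval of -0.76 to 0.04, an unadjusted p of 0.0692 and an adjusted p of 0.605. Without array 1 it was -0.18 (limma unadjusted p = 0.334) and without array 3 -0.53 (unadjusted p = 0.0221). All spots in the background estimate put OXT at -0.41 (limma unadjusted p = 0.0461), and none of these passed adjustment. The dye effect was -0.03 ± 0.16, and the mean ratios by orientation were alike, at -0.32 with pregnant RNA in Cy3 and -0.39 in Cy5. The exact sign-flip p was 0.25.

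AVP, the vasopressin precursor and the other hormone of the posterior lobe, is the nearest protein-coding gene on 1 side of OXT in the RefSeq annotation, with 0 protein-coding genes between them, and it gave almost no signal. Its median pixel intensity in the pregnant and the cyclic animal was 85 and 447 (array 1), 68 and 101.5 (array 2), 87 and 78 (array 3) and 74.5 and 85 (array 4). It was well above background in 3 of 8 channels, the cyclic animals of arrays 1 and 3 and the pregnant animal of array 2, and so was not tested. The cyclic animal of array 1 was the brightest of the 8 for AVP, while for OXT that animal was the fifth. The 2 listed posterior lobe hormones thus differed in detection, with OXT well above background in 8 of 8 channels and AVP in 3 of 8. Of 9 genes listed for the oxytocin and vasopressin system, 5 had a named probe and 2 were tested, both below 0, with a median of -0.13 and 0 called at an unadjusted p under 0.05. LNPEP, the aminopeptidase that degrades oxytocin, stood at -0.19 ± 0.16 (adjusted p = 0.734), with -0.0049 without array 1, -0.07 without array 2, -0.37 without array 3 and -0.31 without array 4. AVPR2, a vasopressin receptor, stood at -0.07 ± 0.10 (adjusted p = 0.850). OXTR, the oxytocin receptor, was well above background in 0 of 8 channels, and CRH in 1.

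Markers of other tissue that a dissected gland can hold were read beside these values. For the 2 posterior lobe hormones, the summed level (normalized intensity summed over the genes) lay between 3362 and 9424 in pregnant and between 4994 and 9881 in cyclic animals, which restates the OXT values, since AVP added little. Of 9 markers of pituicytes and glia, 4 had a named probe, and their sum lay between 656 and 983 in pregnant and between 521 and 1156 in cyclic animals. Of these 3 were tested, with 1 above and 2 below 0 and a median of -0.06. AQP4, the astrocyte water channel, was detected in 8 of 8 channels at -0.11 ± 0.22, with array 4 at 0.76 and the other arrays below 0. GFAP, at -0.06 ± 0.12, and SLC1A3, at 0.10 ± 0.10, were detected in 4 of 8 channels each and LHX2 in 2, while RAX and NKX2-1, which define pituicytes, had no named probe. Of 8 markers of axons and neurons, 5 had a named probe, and their sum lay between 98629 and 149265 in pregnant and between 74245 and 111505 in cyclic animals. That sum came mostly from UCHL1, a neuronal ubiquitin hydrolase, with mean log2 levels of 16.67 in pregnant and 16.39 in cyclic animals. The next highest was NEFL, a neurofilament subunit, at 13.40 and 13.39. Of the 5 axon and neuron genes, 4 were above 0, with a median of 0.28. At an unadjusted p under 0.05, 1 was called, as were 8.03% of all probes. It was UCHL1, at 0.28 ± 0.11 (limma adjusted p = 0.605), with -0.10, 0.54, 0.22 and 0.48 on the 4 arrays. The dye effect of UCHL1 was 0.22 ± 0.11, nearly as large as its estimate. GAP43, a growth cone protein, stood at 0.28 ± 0.14, STMN2 at 0.30 ± 0.15, NEFL at 0.01 ± 0.11 and SYN1, a synaptic vesicle protein, at -0.18 ± 0.13. STMN2 was above 0 where pregnant RNA carried Cy5 (1.10 and 0.83) and below where it carried Cy3 (-0.02 and -0.73). Its dye effect was 0.67 ± 0.15. The axon markers were thus above 0 except SYN1, with NEFL near 0, and endocrine cells also express several of them. Their part in the OXT and POMC values was not tested.

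**Figure D4:**
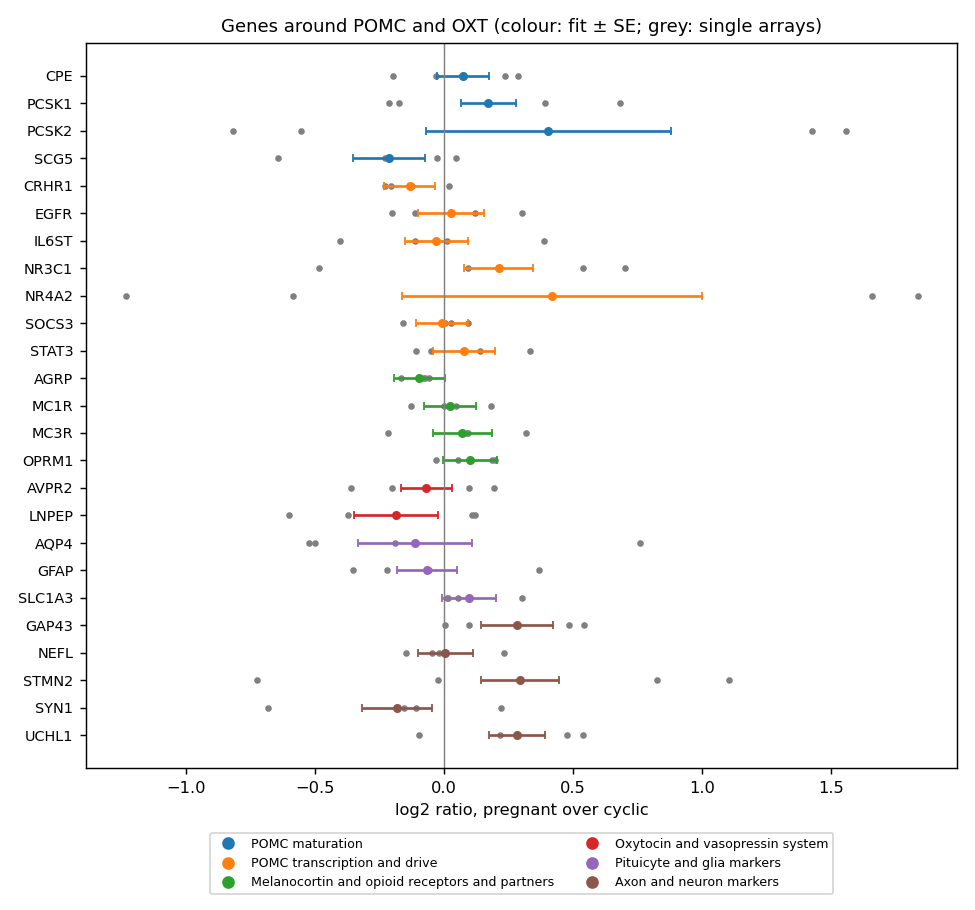
The log2 ratio of pregnant over cyclic (x axis) for the tested genes of the lists around POMC and OXT and of the glia and axon markers, coloured points with bars for the limma estimate ± SE and grey points for single arrays. PCSK2 and NR4A2 have the widest spread between arrays of the genes drawn, and most other estimates lie within 0.3 of 0.

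Of 9 genes of the other secretory cells of the anterior lobe, 9 were tested, with 7 below and 2 above 0, a median of -0.42 and 1 called at an unadjusted p under 0.05. Of all probes, 52.4% lay below 0 and 8.03% were called at that p in either direction. The called gene was LHB, at -0.42 ± 0.15 (limma adjusted p = 0.605), whose estimate was also the median. Others were noisy, such as TSHB at -1.10 ± 1.33, with arrays from -4.20 to 4.48, and GH1 at -0.53 ± 0.37, with a dye effect of 0.86. Of the 6 corticotrope markers 3 were tested, POMC (read at A_72_P671668), CRHR1 and PCSK1, with 1 above and 2 below 0, and their median of -0.11 was the POMC value itself. Of the 4 melanotrope markers 2 were tested, the same POMC probe and PCSK2, with 1 on each side of 0 and a median of 0.15. Of the 6 folliculostellate and stem markers 3 were tested, with 1 above and 2 below 0 and a median of -0.14. With POMC read at that probe, 0 genes of these 3 lists were called at an unadjusted p under 0.05, while the other 2 POMC probes were. For the 4 blood markers no probe was named.

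The named genes whose 4 array ratios lay nearest to those of each member were found by the mean absolute difference over the 4 arrays, among 2400 genes. For POMC A_72_P671668 these were CGA, the alpha subunit of the glycoprotein hormones, at 0.0654, RPL32 at 0.109, RPS28 at 0.124, FTH1 at 0.128 and RPLP0 at 0.141, and 23 genes lay within 0.2. All 5 also had a mean log2 intensity above 16. For A_72_P232287 the nearest were CTSD at 0.175, IRF7 at 0.202, CUEDC1 at 0.205, CLU at 0.237 and PRR5 at 0.245, with 1 gene within 0.2, so it shared no neighbour with A_72_P671668. For A_72_P668559 the nearest, SLC9A3R2, lay at 0.227. For PCSK2 they were NRN1 at 0.178, NR4A2 at 0.356, BTG2 at 0.466, KCNAB1 at 0.498 and NR4A3 at 0.504. For OXT they were SCAMP2 at 0.0406, XIAP at 0.0534, TCAP at 0.0841, CYB561 at 0.0933 and CAMK1G at 0.0940, with 77 genes within 0.2. PCSK2 had 1 gene within 0.2. The median distance to the 2400 genes was 0.45 for OXT and 1.09 for PCSK2, so a fixed cut of 0.2 does not compare them evenly. Each such likeness is over 4 arrays and is a description.

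With 1 dye orientation on all arrays the POMC estimates became -0.59 for A_72_P671668, 0.13 for A_72_P232287 and 0.58 for A_72_P668559, with PCSK2 at -0.10 and OXT at 0.03, and 0 of the 5 passed limma's adjusted threshold there (the lowest adjusted p, for A_72_P671668, was 0.524). Group and dye cannot be told apart under that assignment. With background parameters estimated from all spots, A_72_P671668 stood at 0.37. Under every alternative except the single orientation, A_72_P232287 lay between -0.81 and -0.36 and OXT between -0.53 and -0.18. Over all alternatives the lowest adjusted p of any of the 5 probes was 0.136, for A_72_P232287 in the separate-channel fit.

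**Figure D5:**
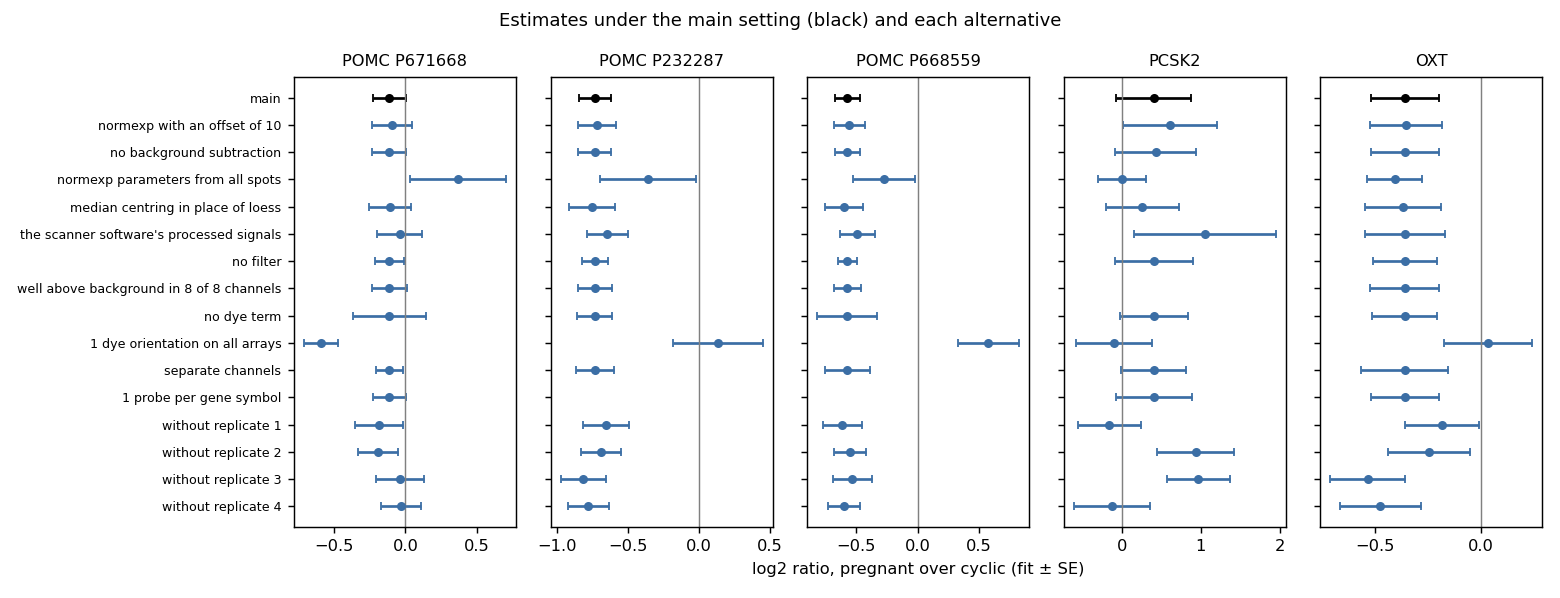
Estimates of the log2 ratio of pregnant over cyclic (x axis, ± SE) for the 5 probes under the main setting (black) and each alternative (blue), 1 row per setting. POMC A_72_P232287 and OXT stay below 0 except with 1 dye orientation, where they are at 0.13 and 0.03, and PCSK2 runs from -0.16 to 1.05.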

How the data were processed

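Total RNA of 8 gilts was hybridised as 4 pairs to 4 Agilent arrays on 1 slide, and the authors scanned them at 5 micron. Per the file headers, Agilent Feature Extraction 10.7.3.1 gave the deposited median pixel intensity of every spot and its local background in each dye, and processed intensities from that software's background subtraction, detrending and dye normalization. The log10 ratio of the software, deposited beside them, was not used. The authors' deposited log2 ratios come without a statement of their making. On each array its values for all 43553 probes spotted once equalled log2 of processed pregnant over processed cyclic intensity by the label fields within 0.001, and its column medians were 0.150, -0.0102, 0.0650 and -0.0726, so its scale and direction were found and no further centring was seen.

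The work used limma 3.58.1, jsonlite 2.0.0 and data.table (version 1.17.8) in R 4.3.3. The normexp method with an offset of 50 corrected the background, so that folds of dim probes are understated. Its parameters were estimated without the 377 to 3480 spots per channel that the scanner software marked as outliers. Arrays were normalized by loess with a span of 0.3 and control spots at weight 0, outlier spots (26 to 63 per array) were left out and spots of a probe averaged. Levels of single animals are channel values after loess and Aquantile scaling, open to dye bias within an animal. Testing was limited to the 25203 of 43603 probes that stood well above background in 4 or more of the 8 channels. lmFit and eBayes fitted pregnant over cyclic with a dye effect per probe, adjusted by Benjamini-Hochberg over all tested probes at 0.05, and the fit was tested on simulated data. For a looser count, probes needed a fold of at least 1.2 and an unadjusted p under 0.05.

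Probe names came from RefSeq accessions through a table of the Sscrofa11.1 assembly, which named 6700 probes of 3029 genes. The other probes are unnamed here, and no sequences or coordinates were used. A gene with several probes was read at the one of highest mean intensity, the others being given beside it. Named were all probes of the 3 genes and, from each list, the 4 of lowest unadjusted p plus PCSK1, SCG5, CPE, PAM, TBX19, CRHR1, PAX7, DRD2, AVP and OXTR, and the 5 genes of most like ratios. Cell type markers named beside them were chosen after their values were seen. The members and lists were chosen with earlier results of these data known. The mean of the 3 POMC probes was added after the values were seen. The alternatives changed the offset, background, normalization, filter, dye term and orientation, model and arrays.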

Additional observations from a re-analysis of the deposited data

How the results depend on the processing

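With 4 pairs, limma's adjusted threshold was not reached by any of the 5 probes under any alternative run. It called 0 probes of all in the main setting, 3 with an offset of 10, 4 in the separate-channel fit, and 0 to 8 with 1 array left out (8 without array 1). The looser count was 1983, 57.4% of it lower in pregnancy. It was 766 (66.2% lower) with background parameters from all spots and 928 to 3247 with 1 array left out, being 928 without array 1, 965 without array 2 (40.7% lower) and 3247 without array 4 (67.2% lower). With median centring 78.7% were lower. The cause of these shifts was not tested. Leaving out 1 array gave -0.16 to 0.97 for PCSK2, -0.19 to -0.03 for POMC A_72_P671668, -0.35 to 1.19 for NR4A2, -0.017 to 0.17 for STAT3, -0.0051 to 0.15 for MC3R and -0.0089 to 0.059 for MC1R. With 1 dye orientation the signs turned for PCSK2 (-0.10), OXT (0.034), POMC A_72_P232287 (0.13), POMC A_72_P668559 (0.58), PCSK1 (-0.37), NR3C1 (-0.41), STAT3 (-0.063), MC3R (-0.13) and MC1R (-0.089), since arrays 2 and 4 change sign by construction. With background parameters from all spots they turned for POMC A_72_P671668 (0.37), SCG5 (0.070), NR3C1 (-0.060), STAT3 (-0.0025), MC3R (-0.036) and MC1R (-0.027), with median centring for STAT3 (-0.038) and MC1R (-0.074), and with processed signals for AGRP (0.019). PCSK2 had no value under the filter of 8 of 8 channels, nor had the other POMC probes with 1 probe per gene. PCSK2 is limited by signal near background, and its processed-signal estimate was 1.05. The fit of within-array ratios is itself the paired analysis, and no further replicate block could be fitted, since all 4 arrays form 1 group.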
